A study of Homo sapiens with 3 samples.

Results

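The starts of 10 mesenchymal matrix and invasion genes were examined in the XPB and XPD peak lists of HT1080 cells: VIM, FN1, SPARC, COL1A1, COL1A2, MMP14, MMP2, CD44, PLAU and LGALS1. HT1080 is an established human fibrosarcoma line. A peak was taken for a gene when its summit, the tallest point of the peak, lay within 2 kb of the hg19 gene start. The rule found 12 of 21555 XPB peaks, at 6 genes, and 9 of 14570 XPD peaks, at 6 genes. The series holds 1 chromatin immunoprecipitation (ChIP) library for XPB, 1 for XPD and 1 input library that was not enriched, all from the same crosslinked chromatin, and the input was not analysed here. The sample fields name a polyclonal antibody to XPB or to XPD, whereas a shared protocol mentions an antibody to CSB; the sample fields were followed. With 1 library per antibody there was no replicate, so no value below has a test or a p-value, and every interval covers counting error only.

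Both proteins are helicase subunits of TFIIH, a general factor that melts DNA at promoters so that RNA polymerase II can start, and that also acts in nucleotide excision repair. TFIIH joins the polymerase at the start of a gene, so peaks of either subunit are usually looked for there. The genes examined here give a mesenchymal cell its filaments and surroundings: VIM encodes the intermediate filament protein vimentin, FN1 fibronectin, SPARC a collagen-binding matricellular protein, and COL1A1 and COL1A2 the chains of type I collagen. MMP14 encodes a membrane-bound matrix metalloproteinase that activates the secreted gelatinase encoded by MMP2. PLAU encodes urokinase, the protease that turns plasminogen into plasmin, CD44 the hyaluronan receptor, and LGALS1 the lectin galectin-1.

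Promoter sequences are shown to let the letters in front of the starts be read beside the peaks. RefSeq promoters placed on GRCh38.p14 were at hand for 6 of the genes, PLAU with 2 starts, which made 7 entries. The 250 bases before each start are given 5′ to 3′ on the gene's strand. Capitals mark matches, on either strand, to GGGCGG, to TATAAA or to a run pattern, which is 4 runs of at least GGG separated by 1 to 7 bases, as in sequences that can fold into a G-quadruplex; GGGCGG can lie inside the run pattern. These entries belong to another build than the peaks, and were not aligned to the hg19 starts.
VIM (chr10:17227991-17228240, plus strand): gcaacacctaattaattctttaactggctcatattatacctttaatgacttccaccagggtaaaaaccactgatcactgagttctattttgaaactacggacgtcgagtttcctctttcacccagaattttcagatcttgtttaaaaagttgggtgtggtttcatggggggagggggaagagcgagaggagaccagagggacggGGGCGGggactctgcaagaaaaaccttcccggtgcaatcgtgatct
FN1 (chr2:215436069-215436318, minus strand): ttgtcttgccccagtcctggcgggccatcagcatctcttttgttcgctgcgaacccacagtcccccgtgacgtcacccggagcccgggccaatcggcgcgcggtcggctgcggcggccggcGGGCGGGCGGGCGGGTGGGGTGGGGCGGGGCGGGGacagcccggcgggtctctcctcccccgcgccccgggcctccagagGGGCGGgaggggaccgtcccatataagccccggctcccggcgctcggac
SPARC (chr5:151686916-151687165, minus strand): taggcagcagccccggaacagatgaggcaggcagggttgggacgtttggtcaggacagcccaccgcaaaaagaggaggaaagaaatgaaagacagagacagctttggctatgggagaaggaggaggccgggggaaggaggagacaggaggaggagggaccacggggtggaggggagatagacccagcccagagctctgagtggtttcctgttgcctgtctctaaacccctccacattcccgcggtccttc
MMP14 (chr14:22836335-22836584, plus strand): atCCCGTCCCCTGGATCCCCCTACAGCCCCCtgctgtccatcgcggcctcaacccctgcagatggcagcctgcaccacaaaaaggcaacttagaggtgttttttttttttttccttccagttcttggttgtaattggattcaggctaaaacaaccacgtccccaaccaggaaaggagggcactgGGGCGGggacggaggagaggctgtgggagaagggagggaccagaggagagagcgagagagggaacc
PLAU, start 1 (chr10:73910360-73910609, plus strand): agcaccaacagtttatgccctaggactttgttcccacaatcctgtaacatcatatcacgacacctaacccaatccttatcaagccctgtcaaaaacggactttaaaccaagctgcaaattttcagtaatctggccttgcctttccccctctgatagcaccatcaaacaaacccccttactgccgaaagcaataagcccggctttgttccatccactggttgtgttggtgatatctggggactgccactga
PLAU, start 2 (chr10:73910882-73911131, plus strand): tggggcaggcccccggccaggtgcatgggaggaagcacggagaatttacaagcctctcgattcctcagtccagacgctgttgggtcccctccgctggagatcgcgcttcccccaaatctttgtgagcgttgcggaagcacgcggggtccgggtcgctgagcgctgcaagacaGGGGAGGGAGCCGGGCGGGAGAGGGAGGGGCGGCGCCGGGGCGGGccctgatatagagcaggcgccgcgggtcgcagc
CD44 (chr11:35138921-35139170, plus strand): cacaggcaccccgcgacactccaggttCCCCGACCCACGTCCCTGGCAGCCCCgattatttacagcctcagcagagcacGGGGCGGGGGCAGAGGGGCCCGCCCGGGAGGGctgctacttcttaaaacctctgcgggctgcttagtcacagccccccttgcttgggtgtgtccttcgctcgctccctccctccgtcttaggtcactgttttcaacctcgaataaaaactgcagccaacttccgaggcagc

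The run pattern was found in 4 of the 7 entries, those of FN1, MMP14 and CD44 and the second of PLAU, against 23.5% of all 35114 RefSeq promoter entries of the same length. The GGGCGG hexamer, the core of the GC box bound by Sp1, was found in 5 of the 7, all but SPARC and the first of PLAU, against 42.6% of all entries. The FN1 entry held 6 copies of it and the second PLAU entry 3. No entry held TATAAA (10.7% of all promoters) or TGAGTCA, an AP-1 site (4.20%). CCAAT was found in 3 entries, those of FN1 and MMP14 and the first of PLAU, against 32% of all promoters. TGACGTCA, the cyclic AMP response element, was found in FN1, against 1.65%. The bases G and C made up 76.4% of the FN1 entry, 68.8% of the second PLAU entry, 62.4% of CD44, 59.2% of SPARC, 56.8% of MMP14, 46.8% of the first PLAU entry and 46.0% of VIM, where the median of all promoters was 58.0%. With 4 of the genes not in these counts, they are a description of single promoters. XPB peaks were found at genes with the run pattern in an entry (FN1, MMP14 and PLAU) and at genes without it (VIM and SPARC). XPD peaks were also found at genes with it (MMP14, PLAU and CD44) and without it (VIM and SPARC). PLAU was counted by its second entry, since its first lacked the pattern. The pattern was searched for only in these entries. A peak that covers a start can hold some of the same bases, but no peak was searched over its whole length. Whether the peaks go with the pattern was therefore not tested.

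The genes fell into 4 sets by their peaks. VIM, SPARC, MMP14, PLAU and LGALS1 had summits of both lists within 2 kb of the start. FN1 had an XPB summit and no XPD summit, CD44 had an XPD summit and no XPB summit, and COL1A1, COL1A2 and MMP2 had neither. In the part of the genome between the first and last peak of each chromosome, 2.71% of positions lay within 2 kb of an XPB summit, 1.86% within 2 kb of an XPD summit and 0.755% within 2 kb of both. Within 1 Mb of the 10 starts these shares were 5.68, 3.93 and 1.77%. Positions are not gene starts. The share of all gene starts with a peak, the reading that would show whether these genes differ from others, was not computed, because no hg19 annotation was used here. Other matrix genes and epithelial genes were not placed for the same reason.

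**Figure D1:**
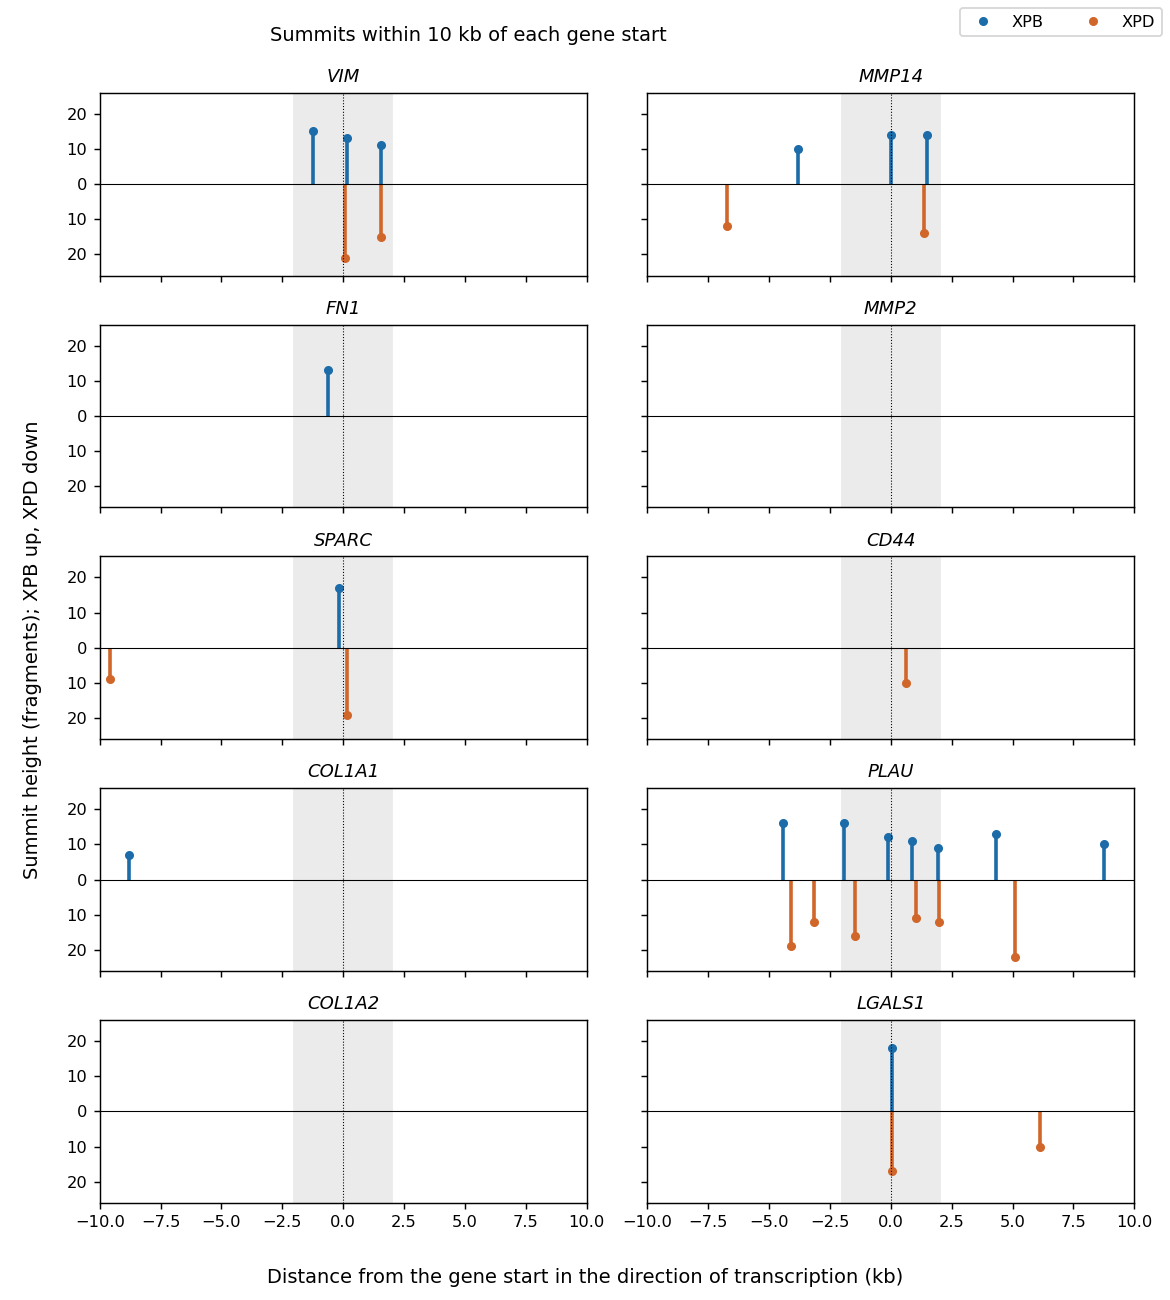
Summits of the XPB list (upward stems) and of the XPD list (downward stems) within 10 kb of each gene start; the x axis is the distance from the start in kb, positive in the direction of transcription, the y axis is the summit height in fragments, and the grey band marks 2 kb on either side. VIM, SPARC, MMP14, PLAU and LGALS1 have stems of both lists in the band, and the panels of COL1A2 and MMP2 are empty.

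VIM, on chromosome 10 with its start at 17270258 on the plus strand, had the tallest XPD summit of the set. XPB summits lay 1242 bp upstream and 144 and 1569 bp downstream of the start, with heights of 15, 13 and 11 fragments. XPD summits lay 94 and 1551 bp downstream, with heights of 21 and 15. At the start the XPB peak ran from 17270088 to 17270830 with a score of 299.73, and the XPD peak from 17270088 to 17270724 with a score of 263.82. The score is the authors' value per peak, a -log10 p-value multiplied by 10. The downstream summits of the lists were 18 bp apart and those at the start 50 bp apart, while the upstream XPB peak had no XPD peak over it. Apart from these, VIM stood alone: within 100 kb there was 1 further XPB summit and 1 further XPD summit. In the RefSeq table VIM is overlapped by the antisense gene VIM-AS1. Here and at the other genes with an overlapping neighbour (FN1, SPARC, CD44 and PLAU), the lists do not tell which transcript a peak belongs to. Such an overlap can lie anywhere along the gene and was not placed relative to the start.

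SPARC, on chromosome 5 with its start at 151066493 on the minus strand, had 1 peak of each list over the start. The XPB summit lay 181 bp upstream with 17 fragments and a score of 528.72, in a peak from 151065739 to 151067001. The XPD summit lay 153 bp downstream with 19 fragments and a score of 272.1, in a peak from 151066042 to 151066981. The summits were therefore 334 bp apart on either side of the start, less than the 400 to 700 bp length of the selected fragments. A further overlapping pair lay inside 20 kb: XPB 14479 bp downstream with 12 fragments and XPD 15559 bp downstream with 15 fragments. In the RefSeq table SPARC is overlapped by CLMAT3.

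FN1, on chromosome 2 with its start at 216300791 on the minus strand, had 1 XPB summit 626 bp upstream. Its height was 13 fragments (exact Poisson interval 6.92 to 22.2) and its score 176.54, which stood at the 38.6th percentile of the XPB list. The peak, from 216300921 to 216301782, did not reach the start. No XPD summit was listed within 100 kb: the nearest lay 492178 bp upstream, with 13 fragments, and 69.1% of positions in the covered part of the genome had an XPD summit at least that near. The XPB list had 3 further summits within 100 kb of the start, all downstream and the first of them at 26183 bp with 10 fragments. Within 1 Mb of the FN1 start there were 11 XPB and 2 XPD summits. In the RefSeq table FN1 is overlapped by ATIC and by the divergent transcript FN1-DT.

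The type I collagen genes had no summit within 2 kb in either list. At COL1A1, on chromosome 17 with its start at 48278993 on the minus strand, the nearest XPB summit was 8792 bp upstream with 7 fragments and a score of 150.68, close to the lowest listed score of 150. The nearest XPD summit was 49435 bp downstream with 12 fragments, and an XPB summit of 12 fragments lay 50 bp from it. COL1A1 was not in a region poor in peaks: 65 XPB and 52 XPD summits lay within 1 Mb, and 11.7 and 9.88% of positions there were within 2 kb of one. COL1A2, on chromosome 7 with its start at 94023873 on the plus strand, lay in such a region, with 5 XPB summits and 1 XPD summit within 1 Mb. Its nearest XPB summit was 211158 bp upstream with 21 fragments, and its nearest XPD summit 390193 bp upstream with 16. For 59.7% of positions an XPB summit was at least that near, and for 64.5% an XPD summit was.

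Of the metalloproteinase genes, MMP14 had peaks of both lists and MMP2 had none. MMP14, on chromosome 14 with its start at 23305793 on the plus strand, had an XPB summit 10 bp downstream of the start, with 14 fragments and a score of 258.22. This peak, from 23305380 to 23306016, had no XPD peak over it. A second XPB peak had its summit at 1476 bp downstream, with 14 fragments, a width of 2159 bp and a score of 533.06, the highest score of any peak in the set. An XPD summit of 14 fragments and a score of 331.72 overlapped it at 1349 bp downstream. MMP2 has its start on chromosome 16 at 55512883 on the plus strand. Its nearest XPB summit was 10823 bp downstream, with 8 fragments and a score of 208.6, and its nearest XPD summit 164827 bp downstream, with 13 fragments. It had 9 XPB and 4 XPD summits within 1 Mb, against 44 and 30 at MMP14.

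PLAU, on chromosome 10 with its start at 75670862 on the plus strand, carried the most peaks. XPB summits lay 1922 and 119 bp upstream and 869 and 1945 bp downstream, with heights of 16, 12, 11 and 9 fragments. XPD summits lay 1465 bp upstream and 1045 and 1993 bp downstream, with heights of 16, 11 and 12. The XPB summit 119 bp from the start was the nearest to it and had no XPD peak over it, while the other 3 XPB peaks paired with the 3 XPD peaks. Outside 2 kb the row of peaks went on. The XPB peak with its summit 4329 bp downstream was 3096 bp wide, with 13 fragments and a score of 701.08. Its XPD partner had its summit at 5095 bp, with 22 fragments and a score of 483.14. Upstream, an XPB summit of 16 fragments at 4427 bp was paired with an XPD summit of 19 fragments at 4103 bp. XPB peaks covered 86.2% and XPD peaks 56.5% of the 5 kb on either side of the PLAU start. At the next highest genes these shares were 34.4% (XPB, MMP14) and 16.3% (XPD, CD44), and over the covered part of the genome 0.643 and 0.487%. In the RefSeq table PLAU is overlapped by C10orf55, and its coding neighbours are CAMK2G and VCL.

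CD44 has its start on chromosome 11 at 35160417 on the plus strand. Within 2 kb it had a summit in the XPD list only, where FN1 had one in the XPB list only. An XPD summit lay 622 bp downstream, with 10 fragments (4.80 to 18.4) and a score of 177.37, in a wide peak of 1631 bp from 35159737 to 35161367 that covered the start. No XPB summit lay within 10 kb. The overlapping pair within 100 kb of CD44 was upstream, where an XPB summit of 17 fragments at 27012 bp lay 25 bp from an XPD summit of 20 fragments at 26987 bp. A single-list XPB peak, with 22 fragments at its summit and scoring 457.27, lay 28044 bp downstream. Within 1 Mb of the CD44 start there were 22 XPB and 14 XPD summits. In the RefSeq table CD44 is overlapped by CD44-AS1 and SNORD164.

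LGALS1, on chromosome 22 with its start at 38071613 on the plus strand, had the closest pair. The XPB summit lay 49 bp downstream with 18 fragments and a score of 354.29, and the XPD summit 52 bp downstream with 17 fragments and a score of 387.07. The summits were 3 bp apart, and both peaks covered the start, from 38070866 to 38072148 for XPB and from 38070979 to 38072038 for XPD. These were the tallest XPB summit and the highest-scoring XPD peak of the set. A further pair lay 10669 bp (XPB, 15 fragments) and 10688 bp (XPD, 14 fragments) downstream.

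**Figure D2:**
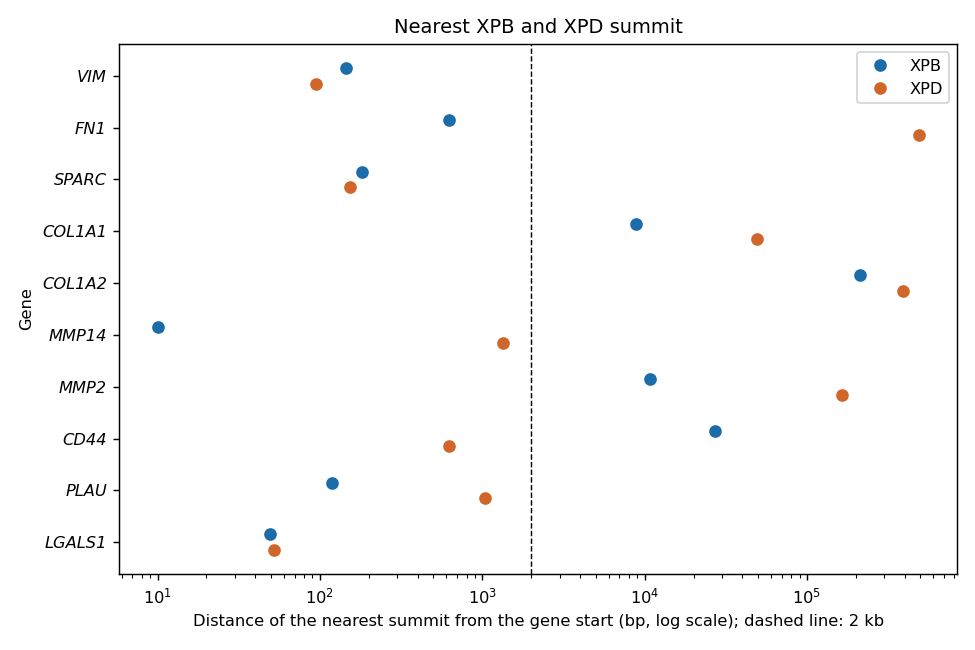
Distance in bp, on a log scale, from each gene start to the nearest XPB and the nearest XPD summit; the dashed line marks 2 kb. The XPB distances run from 10 bp at MMP14 to 211158 bp at COL1A2, and the XPD distances from 52 bp at LGALS1 to 492178 bp at FN1.

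The members just inside the 2 kb limit were PLAU in the XPD list at 1993 bp and PLAU in the XPB list at 1945 bp. The summits just outside it were at PLAU in the XPD list, 3150 bp upstream, and at MMP14 in the XPB list, 3825 bp upstream. No gene had its nearest summit between 2 and 8 kb, so the presence or absence of a peak was the same at 5 kb as at 2 kb. A peak covered the start itself at 5 genes for XPB (VIM, SPARC, MMP14, PLAU and LGALS1) and at 4 for XPD (VIM, SPARC, CD44 and LGALS1). Counted in the direction of transcription, 7 of the 12 XPB summits were downstream of the start and 5 upstream, and 8 of the 9 XPD summits were downstream and 1 upstream. Whether this differs between the lists was not tested.

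Heights at the starts ran from the 18.4th percentile (PLAU) to the 90.9th (LGALS1) of the XPB list. In the XPD list they ran from the 14.9th (CD44) to the 93.6th (VIM). The 12 XPB summits had 9 to 18 fragments with a median of 13.5, against a median of 11 in the whole XPB list (interquartile range 9 to 14). The 9 XPD summits had 10 to 21 with a median of 15, against 13 in the whole XPD list (11 to 15). Above the list median were 9 of the 12 XPB and 6 of the 9 XPD summits. The scores stood higher. The median XPB score was 259.9, against 189.4 in the whole list, and the median XPD score 263.8, against 185.1. Above the list median score were 10 of the 12 XPB and 7 of the 9 XPD peaks. PLAU gave 4 of the XPB and 3 of the XPD peaks. Peaks at other gene starts were not measured, so whether their heights and scores differ from these is not known. The highest scores stood at the 96.9th percentile of the XPB list (MMP14 and SPARC) and at the 94.4th percentile of the XPD list (LGALS1). The lowest were FN1 at the 38.6th percentile of the XPB list, and PLAU at the 33.9th and CD44 at the 42.7th of the XPD list. The FN1 and CD44 peaks, each found in a single list, scored 176.54 and 177.37, against a lowest listed score of 150.

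**Figure D3:**
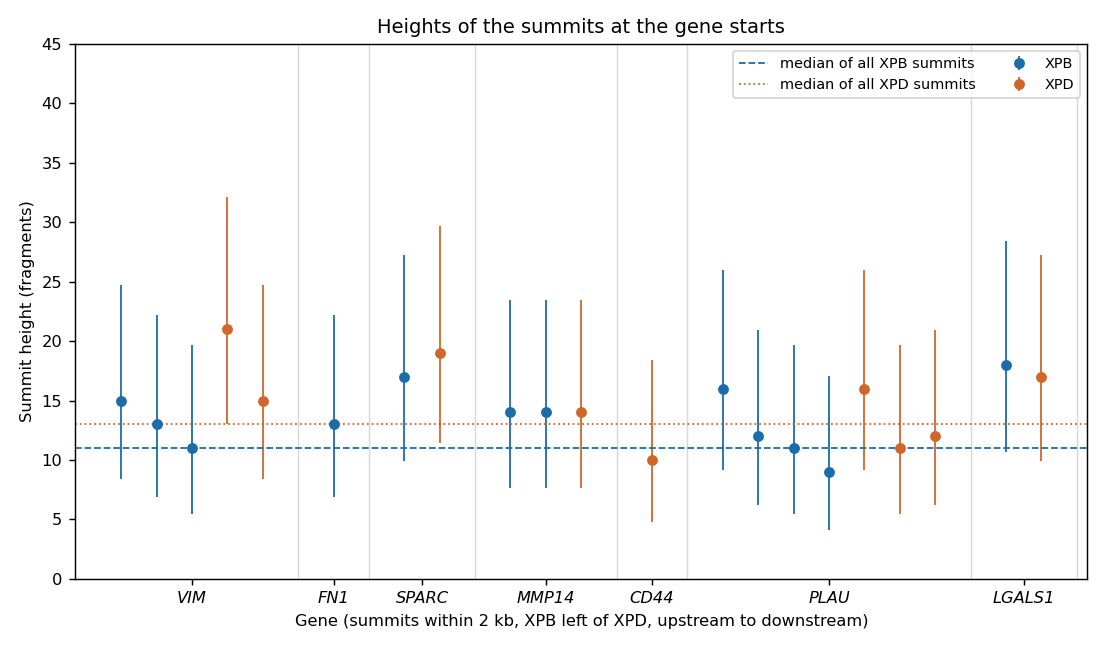
Height in fragments of every summit within 2 kb of a gene start, with exact 95% Poisson intervals as bars; XPB summits stand left of XPD summits for each gene, and the dashed and dotted lines are the medians of the whole lists, 11 for XPB and 13 for XPD. All intervals overlap each other, and the points lie between 9 and 21 fragments.

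At the 5 genes with both proteins, the counting interval of every pair included equal heights. These intervals were wide, so a modest difference would not have been seen. Among the 8 mutually best overlapping pairs of XPB and XPD peaks, the log2 ratio of XPB to XPD height was lowest at the VIM start, at -0.69 (13 against 21 fragments, counting interval -1.81 to 0.37). The downstream VIM pair gave -0.45 (11 against 15, -1.71 to 0.77). The PLAU pairs gave 0.00 upstream (16 each, -1.10 to 1.10), 0.00 at the first downstream pair (11 each, -1.35 to 1.35) and -0.42 at the second (9 against 12, -1.84 to 0.96). The ratio was -0.16 at SPARC (17 against 19, -1.20 to 0.86), 0.00 at the downstream MMP14 pair (14 each, -1.18 to 1.18) and 0.08 at LGALS1 (18 against 17, -0.96 to 1.13). The median of the 8 was -0.08, a pairing chosen after the data were seen, and the median of all 5536 such pairs was -0.11 (interquartile range -0.38 to 0.19). Each of the 8 intervals contains that whole quartile range. Taking the summit of each list nearest the start instead, the median over the 5 genes was 0.00, but at MMP14 and PLAU those summits belong to peaks that do not overlap, 1339 and 1164 bp apart. The heights are not scaled to library depth, which is unknown from the lists.

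Most peaks at these starts had a partner. Of the 12 XPB peaks 8 overlapped an XPD peak, against 26.6% of all XPB peaks, and of the 9 XPD peaks 8 overlapped an XPB peak, against 38.7% of all XPD peaks. Above the median score of each list the shares were 40.3% of all XPB peaks, with 7 of the 10 such peaks at these starts overlapping, and 54.1% of all XPD peaks, with 7 of 7. The peaks are not independent, since 4 of the XPB and 3 of the XPD peaks belong to PLAU. The shares at other gene starts were not computed, so whether these starts differ from others in this is not known. The 4 XPB peaks without a partner were those at FN1, at the MMP14 start, at the PLAU start and upstream of VIM, and the XPD peak without one was at CD44. The 8 pairs were mutually best and lay 3 bp (LGALS1), 18 and 50 bp (VIM), 48, 176 and 457 bp (PLAU), 127 bp (MMP14) and 334 bp (SPARC) apart. Their median was 88.5 bp, against 97.5 bp over all 5536 pairs (interquartile range 26 to 324).

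The density of summits was highest next to the starts. Beyond 2 kb it did not fall steadily with distance, and without PLAU the XPB density rose from each distance to the next. Within 2 kb of the 10 starts the density was 41.5 times the mean of the covered genome for XPB and 46.1 times for XPD. Without PLAU it was 30.8 and 34.1 times. The density at all gene starts was not computed, so whether these starts differ from others is not known. From 2 to 10 kb the density around the 10 starts was 4.33 and 7.68 times the mean, and 1.92 and 4.27 times without PLAU. From 10 to 50 kb it was 3.29 and 3.07 times (2.50 and 1.99 without PLAU), and from 50 to 100 kb 4.29 and 3.07 times (4.31 and 2.27 without PLAU). In all, 36 XPB and 27 XPD summits lay within 50 kb of the starts. PLAU held 13 and 11 of them and MMP14 6 and 5, while COL1A2 had none in either list. PLAU also had the most summits within 100 kb, 16 in each list. COL1A1 had 11 XPB and 4 XPD summits, SPARC 10 and 5, and LGALS1 and MMP14 9 XPB summits each with 5 XPD summits at LGALS1 and 7 at MMP14. At COL1A1 the surroundings held peaks of both lists while the start held none.

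**Figure D4:**
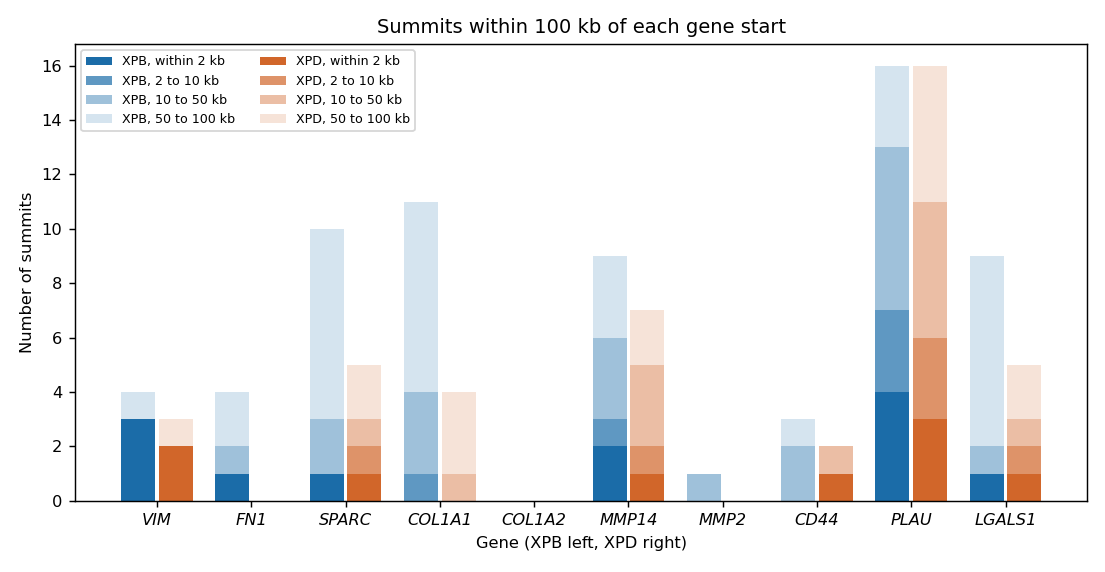
Number of summits within 100 kb of each gene start, XPB bars left and XPD bars right, shaded from dark (within 2 kb) to light (50 to 100 kb). PLAU has 16 summits in each list, COL1A1 has 11 XPB and 4 XPD summits with none within 2 kb, and COL1A2 has none.

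From 10 to 100 kb the highest-scoring common site was near MMP14. Its XPB summit, with 26 fragments and a score of 570.06, lay 15045 bp downstream of the start, 13 bp from an XPD summit with 15 fragments that scored 428.24. A second pair lay beside it, XPB 16786 bp and XPD 16590 bp downstream, with 13 fragments each. The coding neighbours of MMP14 in the RefSeq table are MRPL52 and LRP10, and no gene was given to this site. Of the 26 mutually best pairs within 100 kb of a start, 18 lay more than 2 kb from it, and 9 of the 26 were at PLAU.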

How the data were processed

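ChIP-seq peak lists of 1 XPB and 1 XPD library from HT1080 cells were used; groups came from the sample titles. Reads were aligned to hg19 with Bowtie 0.12.7 and MACS 1.4 called the peaks, according to the submitters' processing notes and per the labels; the control, other caller settings and library depths are not given in the sources used here. The deposited score per peak is a -log10 p-value multiplied by 10 (150 to 3100), and the deposited summit signal is the pileup height in fragments, not scaled to depth; both meanings follow the usual MACS layout. The members were all named, and the members and lists were chosen with earlier results of these data known.

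Gene starts were taken in hg19, with strands from RefSeq promoters (6 genes) or general knowledge (4). Positions are 1-based. Background shares are exact counts of positions. Peaks overlapped when they shared 1 bp, and pairs were each other's largest overlap. Intervals are 95% exact Poisson for heights and Clopper-Pearson-based for ratios; PCR copies are not independent molecules. Functions were tested on simulated lists. Distance, score, list length and pairing were varied; planned steps that need hg19 annotation were not run. Python 3.11.15, numpy 2.4.6, pandas 2.3.3, scipy 1.17.1 and matplotlib 3.10.9 were used.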

Additional observations from a re-analysis of the deposited data

How the results depend on the processing

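Of 44 alternatives, 24 stayed and 20 moved, the latter by over 1.5 times for a count or at all for a share of positions or a distance. The 6 genes with an XPB summit stayed between 4 (scores of at least 300) and 7 (10 kb). The 6 with an XPD summit became 3 at scores of at least 300. The 5 with both became 3 within 1 kb (LGALS1, SPARC and VIM), 3 where a peak had to cover the start (the same genes) and 3 at scores of at least 300 (LGALS1, MMP14 and PLAU). FN1 and CD44 lost their peaks at scores of at least 200. The share of positions near an XPB and an XPD summit (2.71 and 1.86%) was 5.68 and 3.93% within 1 Mb of the starts, 1.18 and 0.735% at scores of at least 200, and 0.401 and 0.226% at scores of at least 300; with lists of equal length the XPB share was 1.84%. The median distance between nearest summits (334 bp) was 457 bp for the tallest summits and 88.5 bp for mutually best overlapping peaks, a pairing chosen after the data were seen. The 36 XPB and 27 XPD summits within 50 kb became 17 and 15 within 10 kb, 67 and 42 within 100 kb, and 23 and 16 without PLAU, which was also chosen after the data were seen; at scores of at least 200 the XPD count was 17. The median log2 height ratio of the nearest summits (0.00) was 0.11 relative to the median of all pairs, 0.00 for the tallest summits and -0.08 for mutually best overlapping peaks, and the same ratio of scores was 0.18; these were counted as stayed because they moved by less than the half-width of the counting interval of the summed heights (-0.62 to 0.32). The settings that need hg19 annotation were not run. No paired analysis was possible because each antibody had 1 library. Depth is unknown and no score is under 150, so a gene with no listed peak is not shown to be unbound.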
